A study of Bos taurus with 18 samples.

Results

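DGAT1 and 4 genes near it on cattle chromosome 14 (FBXL6, HSF1, BOP1 and MROH1) belong to the 25 genes that the study fine-mapped for gestation length, and their DNA methylation was read in the sperm of 18 adult Holstein bulls. The members are the CpG positions inside the 5 genes and within 2000 bp on each side, by the coordinates given with the study (UMD 3.1 build). At least 1 bull listed a value at 2455 such positions, of 40640718 positions in the whole series. Whole-genome bisulfite sequencing turns unmethylated cytosines into a base read as T, and methylation at a CpG is the percent of reads in which C remains. The labels place bulls in high and low groups for 5 traits. For gestation length (GL), H03, H09, L03 and L05 were high and H02, H05, L01 and L07 were low. For sire calving ease (SCE), H03, H07 and L02 were high and H01, H06 and L09 were low. For body depth (BDE), H02, L03 and L08 were high and H05, H09 and L02 were low. For cow conception rate (CCR), H08, H09 and L06 were high and H06, L08 and L09 were low. For sire conception rate (SCR), H01, H02 and H03 were high and L01, L02 and L03 were low. H04 and L04 carried no group and enter only the values given over all 18 bulls. Each bull is 1 library, and the H and L of a name match the group only in SCR, which 6 of the 18 bulls entered. Many bulls serve several traits, so that the 5 comparisons share bulls and are not independent.

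The 5 genes have unlike roles. DGAT1 encodes the enzyme that adds the last fatty acid to make triglycerides and is known in dairy cattle for its effect on milk fat. HSF1 is the transcription factor that switches on heat shock genes and also acts in germ cells and early embryos. BOP1 works in ribosome assembly, FBXL6 belongs to the F-box proteins that pick targets for ubiquitin ligases, and MROH1 is a protein built of HEAT repeats. In sperm, as in most mammalian cells, gene bodies are generally heavily methylated, whereas CpG-rich promoters are generally free of methylation.

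Along the chromosome FBXL6 spans 1766668 to 1769756, DGAT1 1795425 to 1804838, HSF1 1806079 to 1825822, BOP1 1825963 to 1844588 and MROH1 1844663 to 1894471. The last 4 genes lie close together. The gap is 1240 bp between DGAT1 and HSF1, 140 bp between HSF1 and BOP1, and 74 bp between BOP1 and MROH1. FBXL6 lies 25668 bp below DGAT1, and the upper end of SLC52A2 is 20 bp below the lower end of FBXL6. SCRT1, also fine-mapped, ends 4961 bp below the next of the 5 genes above it. All 5 symbols matched the RefSeq table of the ARS-UCD2.0 assembly, which gives them in the same order on chromosome 14. Strands are not given in the tables used here, so the ends of a gene are called lower and upper by coordinate.

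How densely a gene was read set what could be said about it. A position is listed only where at least 10 reads covered it. MROH1 held 1206 listed positions, HSF1 573, BOP1 461, DGAT1 295 and FBXL6 171, flanks included. Of the FBXL6 positions, 113 were listed in 1 bull only, and the best covered ones in 5 bulls. HSF1 and MROH1 had 16 positions each that 12 or more bulls listed, and the other genes had 0. H08 listed 1410 positions of the 5 genes and H01 listed 38, with a median of 250 over the bulls. H01 listed none in DGAT1, and H01, L08 and L09 listed none in FBXL6.

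**Figure D1:**
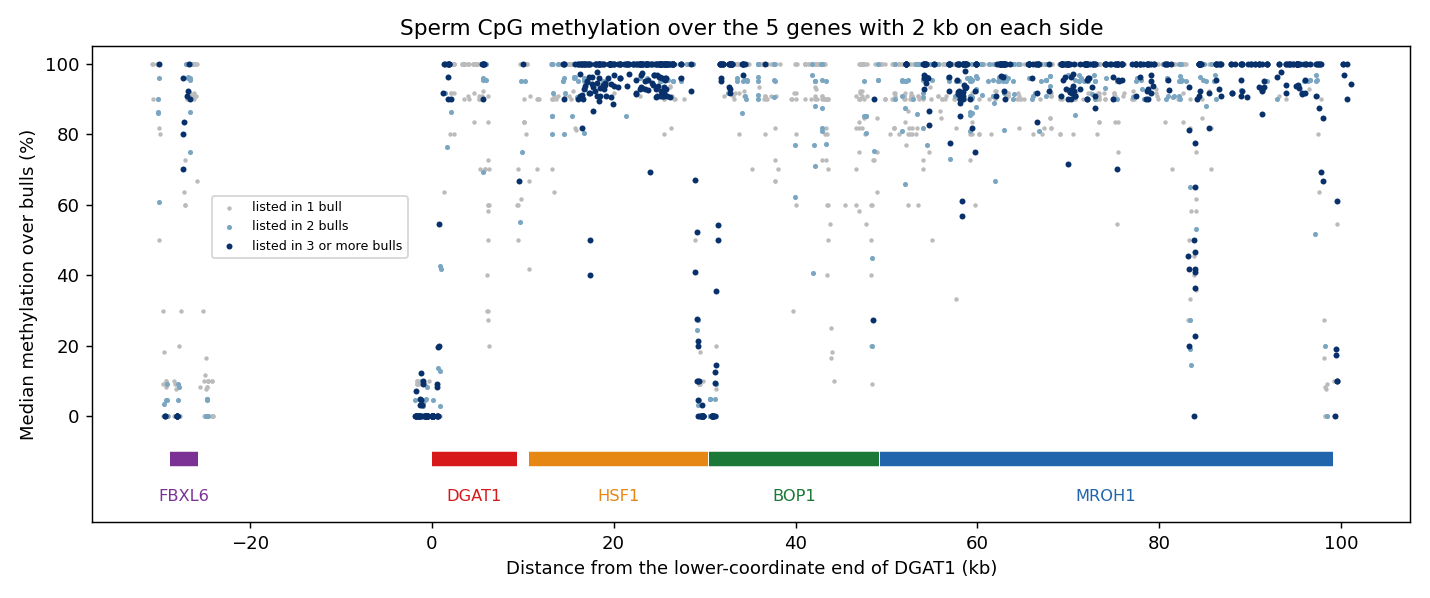
Median methylation over bulls (y axis, percent) of each of the 2455 listed CpG positions against its distance from the lower-coordinate end of DGAT1 (x axis, kb), coloured by the number of bulls that list it, with bars for the gene extents. Most of the bodies of HSF1 and MROH1 lie above 80%, and drops to near 0 stand at the lower ends of FBXL6 and DGAT1, at the border of HSF1 and BOP1, beyond the upper end of FBXL6 and at the upper end of MROH1.

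The plot of position medians shows a locus with 2 main states. Of the 159 bins of 500 bp that held at least 10 values, 135 (84.9%) averaged over 80% methylation, 15 (9.43%) under 20%, and 9 (5.66%) in between. In the whole genome 81.3% of such bins averaged over 80%, 3.34% under 20% and 15.4% in between. The median bin stood at 95.1% in the 5 genes and at 93.7% in the genome. The genes did not share the states evenly. Counting a bin for each gene whose extent holds it, under 20% were 4 of 8 bins in FBXL6, 6 of 15 in DGAT1, 3 of 37 in HSF1, 3 of 25 in BOP1 and 2 of 88 in MROH1.

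At DGAT1 the unmethylated state covered the lower end. A stretch of 2994 bp, from 1793141 to 1796134, began 2284 bp below the gene and reached 709 bp into its body. It was found as a run of at least 10 neighbouring positions, each listed in 3 or more bulls, with medians under 20%. All 155 listed positions of the stretch had a median under 20%, and the median of these medians was 0. Of the 14 bulls with at least 3 positions there, the lowest were H07 and L09 at 0%, the median was 2.50%, and the highest was L02 at 12.5%, from 4 positions. H04, H08 and L01, which listed 51, 81 and 53 positions, stood at 3.80%, 1.44% and 2.40%. The value of L02 rests on 1 position below the 2000 bp flank, and its 3 positions within the flank averaged 3.33%. Among positions listed in 3 or more bulls, the first at or above 80% lay 1282 bp below and 502 bp above the stretch.

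At the border of HSF1 and BOP1 a second stretch of 1789 bp, from 1824765 to 1826553, covered the upper end of HSF1 and the lower end of BOP1 together. It took in 1057 bp of the HSF1 body, the gap between the genes, and 590 bp of BOP1. Its 101 positions all had a median under 20%. Over the 13 bulls with 3 or more positions it ranged from 0% in L02 to 7.14% in L07, with a median of 1.67%, and H08, with 52 positions, stood at 2.18%. In other mammals HSF1 and BOP1 are known as neighbours that start from a shared region and run in opposite directions. Among positions listed in 3 or more bulls, those at or above 80% returned 849 bp below and 575 bp above. CpG positions were dense in both stretches, at 51.8 listed positions per kb in DGAT1 and 56.5 at the HSF1 and BOP1 border, against 20.4 to 24.1 per kb over the whole extents of the 5 genes.

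FBXL6 and MROH1 had unmethylated ends too, but fewer bulls listed them. When positions listed in a single bull were admitted, a choice made after the data were seen, 5 stretches were found in place of 2. At FBXL6 one of 1753 bp began 803 bp below the gene and reached 949 bp into it. Its 104 values from 8 bulls averaged 1.83%, and the 5 bulls with at least 3 positions stood between 1.11% and 2.00%. Another, of 1814 bp, began 618 bp above the upper end of FBXL6 and averaged 3.43% over 6 bulls. At MROH1 a stretch of 1244 bp lay across the upper end and reached 408 bp beyond it. It held only 15 positions, from 9 bulls, and averaged 9.55%. The body of FBXL6 held both states, with 34 of its 79 positions under 20% and 35 over 80%, and averaged 93.1% over the 1000 bp inside its upper end.

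**Figure D2:**
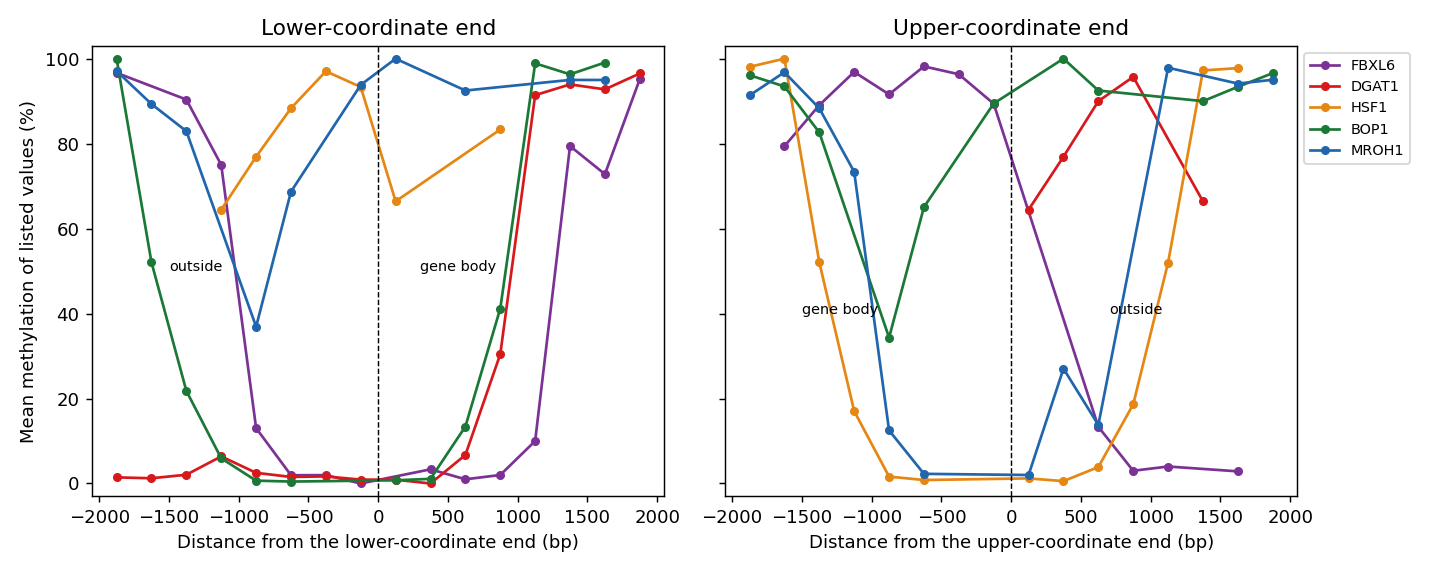
Mean methylation of the listed values (y axis, percent) in 250 bp steps from 2000 bp outside to 2000 bp inside each end of the 5 genes (x axis, bp; dashed line, end of the gene; steps with under 3 values left out). FBXL6, DGAT1 and BOP1 lie near 0 across the lower end and HSF1 across the upper end, and MROH1 averages 9.09% inside and 20.6% outside its upper end, while the 1000 bp inside the opposite end average 93.1% in FBXL6, 64.3% in BOP1, 74.9% in HSF1 and 96.3% in MROH1 and hold no step with 3 values in DGAT1.

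In each gene 1 end averaged under 10% over its inner 1000 bp, as the plot of gene ends shows. The 1000 bp inside the lower end averaged 1.75% in FBXL6, 6.04% in DGAT1 and 8.42% in BOP1, against 74.9% in HSF1 and 96.3% in MROH1, where 6 and 8 values were listed. The 1000 bp inside the upper end averaged 1.19% in HSF1 and 9.09% in MROH1, against 93.1% in FBXL6 and 64.3% in BOP1. In MROH1 this rests on 12 values from 5 bulls. Only 2 of them had 3 or more positions, H04 at 5.02% and H08 at 24.6%. DGAT1 had a single listed value there, so that its upper end was read only outside, at 83.6% over 1000 bp. The range of the bulls was narrowest at the HSF1 end, but the windows are unlike. Over 7 bulls with 3 or more positions inside the DGAT1 end the level ran from 2.09% in L01 to 24.0% in L09. The stretch ends 709 bp into DGAT1, so this window also holds positions beyond it. Within the stretch L09 stood at 0% over 9 positions. Over 8 such bulls at the HSF1 end the level ran from 0% to 2.08% in H08, in a window wholly within the second stretch. The 2 ranges thus do not compare the bulls over like positions. The 1000 bp outside the upper end of MROH1 averaged 20.6%, from 8.52% in L04 to 46.4% in H04 over the 7 bulls with 3 or more positions.

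Outside the 2 stretches most positions were methylated. Of the 2201 positions there, 1858 (84.4%) had a median over 80%, 195 lay between 20% and 80%, and 148 lay under 20%, of which 109 were in FBXL6. In FBXL6 these were 109 of 171 positions, with 47 (27.5%) over 80%. Its own low runs, as far as they lie within the 2000 bp flanks, are counted here because only 17 of its positions were listed in the 3 bulls that a stretch required, so this share is not set against those of the other genes. Over these positions the 18 bulls ran from 78.9% in H04 to 95.04% in H02, with a median of 90.6%. Of the 431 positions of H04 there, 64 were in FBXL6, where H04 averaged 17.7%, so these means depend on the positions listed. Within the stretches the 17 bulls with a value ran from 0% in H07 to 10% in L08, which listed 1 position. The stretches were chosen for low medians, so this gap is a description. Both strands of a CpG were listed in the same bull 577 times, and the strands then differed by a median of 5.88 points.

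Bin means between 20% and 80% were confined, among bins with at least 10 values, to 9 bins, which were singled out after the profile was seen. Of these, 4 lie at the borders of the stretches or of the MROH1 end (22.2%, 69.2%, 25.4% and 23.3%). Among these bins the clearest site away from an end lies in the body of MROH1. Adjoining bins from 1878501 to 1879500 averaged 48.2% over 7 bulls and 46.0% over 5 bulls. The bins on both sides averaged 97.5%, from only 4 values, and 96.5%, from 73 values. In the first bin 22 of 32 values lay between 20% and 80%, and in the second 32 of 40, so that single positions were themselves intermediate. The bulls with 3 or more positions ran from 40.9% in L09 to 61.6% in L04 in the first bin. In the second they ran from 35.7% in H08 to 67.6% in H03. Within BOP1, the bin from 1843501 to 1844000, near its upper end, averaged 38.5% over 3 bulls, with 13 of 14 values between 20% and 80%. Within DGAT1, the bin from 1801501 to 1802000 averaged 53.8% over 3 bulls, with H09 at 55.7% from 7 positions and H08 at 56.5% from 5.

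**Figure D3:**
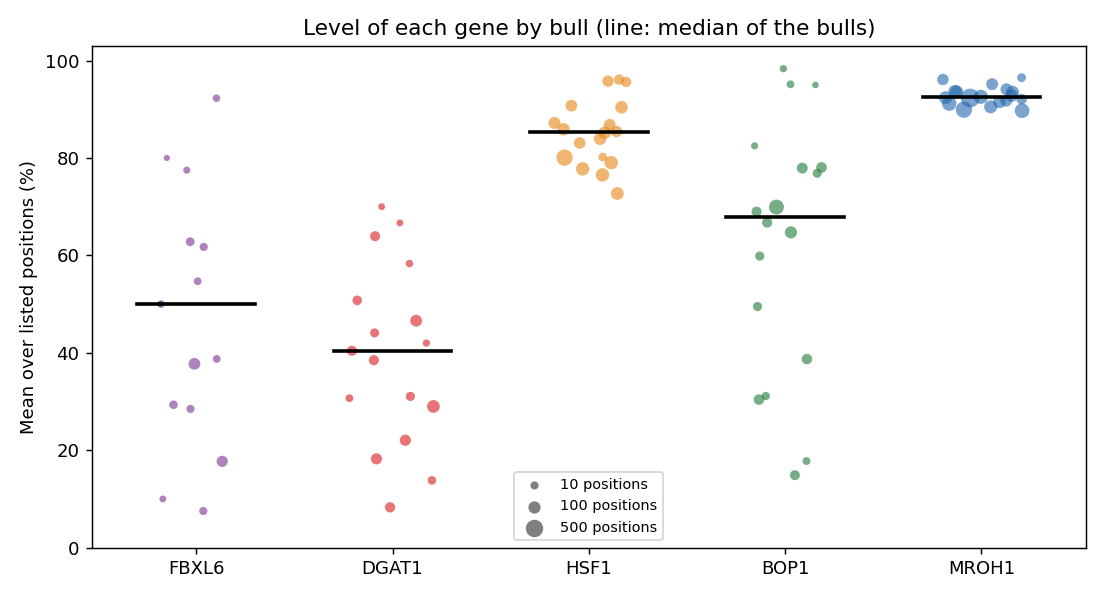
Mean methylation over all listed positions of each gene with its flanks (y axis, percent) for each bull (point, with area growing with the number of positions; line, median of the bulls). MROH1 stays between 89.7% and 96.5% in all 18 bulls, while DGAT1, FBXL6 and BOP1 spread widely.

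Averaged over everything a bull listed, MROH1 had the highest median of the 5 genes, with 89.7% in H04 as the lowest, a median of 92.5% and 96.5% in H01 as the highest. HSF1 ran from 72.7% in H09 over a median of 85.3% to 96.1% in L08. BOP1 ran from 14.9% in H09 over 67.9% to 98.3% in H01, and FBXL6 from 7.52% in H05 over 50% to 92.3% in L01. DGAT1 ran from 8.28% in L04 over 40.4% to 70% in L08, the lowest median. The order of FBXL6 and DGAT1 turned with the bulls and positions used: among bulls with at least 10 positions in the gene the median was 29.3% in FBXL6 (7 bulls) and 34.8% in DGAT1 (12 bulls), and the mean over positions was 32.6% and 41.9%. The order of the top genes turned as well, with 94.6% in HSF1 and 93.4% in MROH1 at the positions that 12 or more bulls listed. The range of bulls of each gene overlapped with that of the next in this order, and the ranges of MROH1 and DGAT1 did not overlap. All genes were read in the same bulls, so overlapping ranges do not compare genes within a bull. Within a bull, MROH1 stood above HSF1 in all but H02 and L08, and HSF1 above BOP1 in all but H01. These plain means depend on how many of a bull's positions fall in the unmethylated stretches. At DGAT1, L01 listed 53 positions in the stretch and 64 in the gene with its flanks, and H09 listed 10 and 37. Within the stretch these bulls stood at 2.40% and 0.83%, and over the gene their means were 18.2% and 63.9%. In the lower flank of DGAT1 alone, all 111 positions had medians under 20% and the bulls ran from 0% to 10%.

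Since bulls list different positions, they were compared by a bull effect, which is how many percentage points a bull stood above or below the others at the positions it shared with them. These effects were small in MROH1, with an SD of 0.76 points over 18 bulls, and larger in DGAT1 (2.27 points, 17 bulls), HSF1 (2.27 points, 18 bulls) and BOP1 (3.07 points, 18 bulls). In FBXL6 the SD was 9.04 points over 15 bulls. There H02 stood at -25.7 points and H09 at -14.4 points, each from 1 listed position. In HSF1, H01 stood at -8.47 points from 16 positions, and the other 17 bulls between -1.14 and 2.52 points. In BOP1, L06 was lowest at -9.02 points, with 50 listed positions. Position counts given beside bull effects are all positions the bull listed in the gene. Those shared with another bull, which set the effect, can be fewer. H01 is the bull with the fewest listed positions in the genome, so group differences that rest on it are also given without it.

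At the 32 positions that at least 12 bulls listed, the bulls differed by 6.67 to 43.8 points between the lowest and the highest, with a median of 16.7 points. In HSF1 the widest was position 1818395, where 7 of 13 bulls stood at 100% and L02 was lowest at 73.3%. L02 had 11 of 15 reads methylated there, with an exact 95% binomial interval from 44.9% to 92.2%, which overlaps those of the other 4 bulls with listed coverage. In MROH1 the widest was position 1893200, close to the unmethylated upper end, from 42.9% in L06 to 86.7% in H09 with a median of 69.2%. Coverage was listed for 4 of its bulls, with intervals from 23.4% to 83.3% in H02 (6 of 11 reads) and from 52.4% to 93.6% in H03 (14 of 18 reads). The intervals cover counting error only. For the bulls without a coverage column the depth is unknown.

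**Figure D4:**
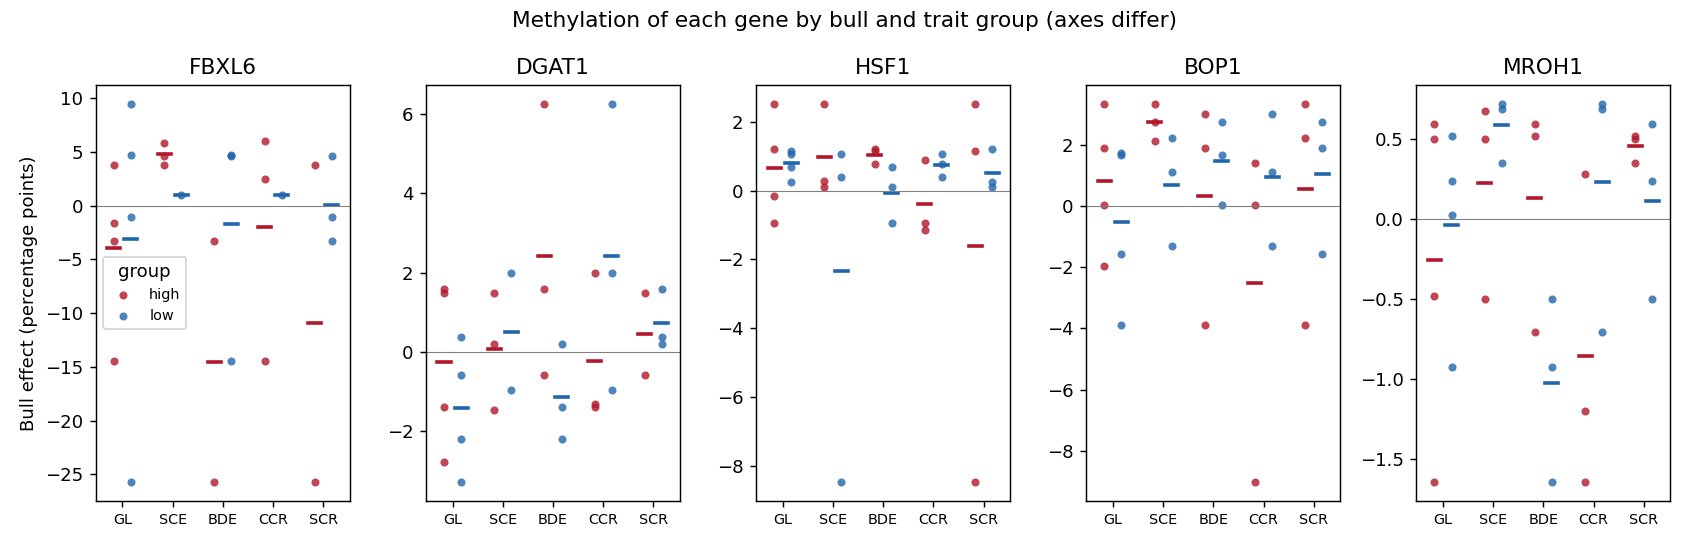
Bull effect (y axis, percentage points, a separate axis for each gene) of every bull with a value, by trait (x axis) and group (red, high; blue, low; line, mean of the group). High and low bulls overlap in nearly all comparisons, and in HSF1 the 3 high-BDE bulls lie above the 3 low-BDE bulls.

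For gestation length, the trait that led the study to these genes, no gene differed between the groups beyond the spread of the bulls. In DGAT1 the high-GL bulls averaged -0.27 ± 2.16 points (SD, n = 4) and the low-GL bulls -1.42 ± 1.63 points (n = 4), a difference of 1.16 points (exact two-sided permutation test, p = 0.429). In HSF1 the difference was -0.14 points (exact permutation p = 0.914), in BOP1 1.35 points (exact permutation p = 0.486), in MROH1 -0.22 points (exact permutation p = 0.714) and in FBXL6 -0.75 points (exact permutation p = 0.886). High and low bulls overlapped in all 5 genes. With a bull left out, here and below, the bull effects were estimated again, so those of the other bulls change too. The BOP1 value ranged from 0.27 points without H03 or without H02 to 6.20 points without L05. Some bulls listed few BOP1 positions, 4 in H02 and 9 in L03, so these values are unsteady. The DGAT1 value ranged from 0.55 points without L03 to 1.81 points without H09. The other genes changed direction with 1 bull left out. FBXL6 ranged from -8.27 points without H02 to 3.69 points without L07, HSF1 from -0.71 points without H03 to 0.40 points without H09, and MROH1 from -0.59 points without H05 to 0.11 points without H09. The smallest exact permutation p of all these was 0.143, in FBXL6 without H02. The smallest p that 4 against 4 bulls allow is 0.0286.

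For the other traits 3 bulls against 3 cannot give a p under 0.1. HSF1 in BDE was the only comparison to reach it: H02, L03 and L08 stood at 1.14, 1.22 and 0.79 points, and H05, H09 and L02 at 0.69, -0.95 and 0.09 points. The groups did not overlap, and their means differed by 1.10 points (exact two-sided permutation test, p = 0.1). The difference was 0.999 points among the bulls with a coverage column (H02 and L03 against L02) and 1.22 points among those without (L08 against H05 and H09). Since the groups did not overlap, these values bear little on the direction, and no test was possible in them. Without H09 it was 0.55 points (exact permutation p = 0.3). By plain means of listed positions the groups overlapped, with L03 of the high group at 85.4% and H05 of the low group at 90.7%. In SCE, HSF1 was 3.30 points higher in the high group (exact permutation p = 0.6). H01 decided that value, and without it the difference was 0.27 points. In SCR, HSF1 was -2.13 points in the high group relative to the low group, and without H01 it was 1.25 points. DGAT1 differed by 3.55 points in BDE (exact permutation p = 0.2), where L08 stood at 6.25 points from 3 positions, and by -2.66 points in CCR (exact permutation p = 0.3). Without L08 these were 1.63 and -0.74 points. BOP1 differed by -3.46 points in CCR (exact permutation p = 0.5), and by -0.67 points without L06. In this paragraph values are given without the bull that stood apart, and without another bull a difference can be wider. MROH1 differed by 1.16 points in BDE and -1.09 points in CCR (exact permutation p = 0.2 in both). FBXL6 differed by -12.8 points in BDE (exact permutation p = 0.3), which H02 decided with its 1 position, since without it the difference was -1.65 points. Over 25 comparisons of 5 genes and 5 traits, 0 had an exact permutation p under 0.05. For FBXL6, H01, L08 and L09 had no value, which left SCE and CCR with 1 low bull and no test, and BDE and SCR with 2 high bulls. For DGAT1, H01 dropped out of SCE and SCR.

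Differential methylation was then looked for in tiles of 2000 bp by logistic regression, with a tile called at q under 0.01 and a difference over 5 points. A tile could be tested only where every bull of the comparison listed a position. Of 57 tiles that touch the 5 genes or their flanks, 21 were tested in at least 1 trait, and none in FBXL6 or BOP1. For GL, 16 tiles were tested (1 in DGAT1, 5 in HSF1 and 10 in MROH1), and 0 were called, where 8.75% of the 593044 tiles of the genome were. An unadjusted p under 0.05 was found for 4 of the 16 tiles, where 26.2% of all tiles had one. The F test with overdispersion gave it for 2 tiles (6.38% of all tiles) and limma for 1 (4.91%), and both called 0 tiles of the 5 genes and 0 of the genome after adjustment. In 2 of the 16 tiles every high-GL bull lay on one side of every low-GL bull, as in 3.3% of all tiles.

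The DGAT1 tile tested for GL, from 1794001 to 1796000, lies within the unmethylated stretch. It stood at 2.00% in the high-GL bulls and 1.75% in the low-GL bulls (logistic regression, q = 0.611). The high bulls were at 4% in H03, 0% in H09, 0% in L03 and 0.56% in L05, and the low bulls at 0% in H02, 0% in H05, 1.64% in L01 and 3.05% in L07. No bull of either group was thus above 4% there, though H09 and L03 listed 1 position each and H02 and H05 listed 2 each. The smallest p of the GL comparison belonged to an HSF1 tile, from 1818001 to 1820000, with 92.9% in the high and 96.3% in the low bulls. The high bulls lay at 93.8% (H03), 93.8% (H09), 91.9% (L03) and 91.6% (L05), all below the low bulls at 97.0% (H02), 98.1% (H05), 95.8% (L01) and 94.8% (L07). Its difference of -3.35 points was under the threshold (logistic q = 0.0257, limma adjusted p = 0.98), and over 27 matched positions it was -3.51 points. Matched positions are those for which both groups had a bull with a value. The widest matched difference was -5.19 points, over 7 positions of an MROH1 tile from 1870001 to 1872000 (logistic q = 0.106), where the groups overlapped.

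**Figure D5:**
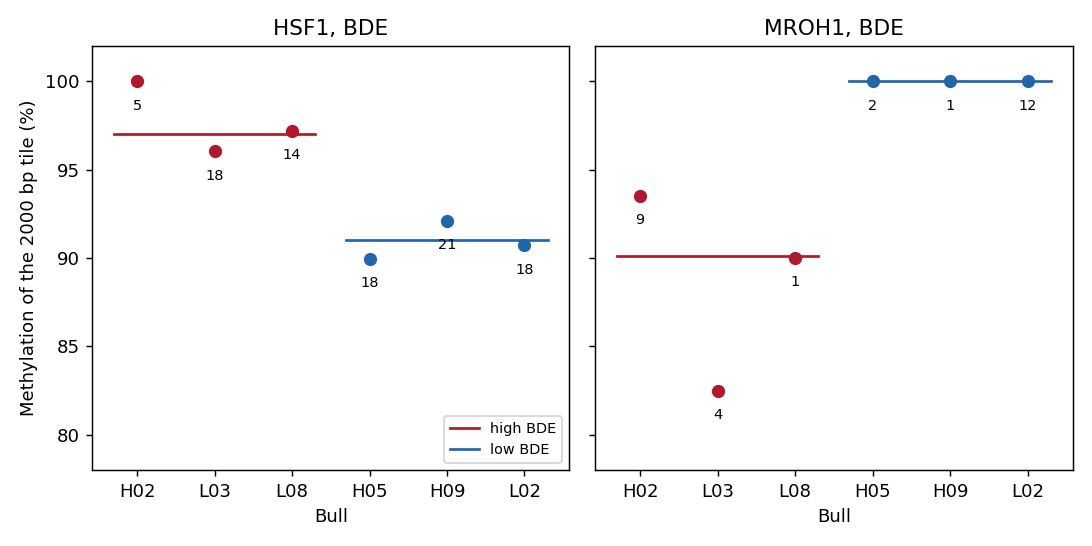
Methylation of the 2 tiles called for body depth (y axis, percent, not starting at 0), in HSF1 (left) and MROH1 (right), for each bull (x axis; red, high BDE; blue, low BDE; number, listed positions; line, value of the group). In HSF1 the high bulls lie between 96.0% and 100% and the low bulls between 90.0% and 92.1%, and in MROH1 the 3 low bulls lie at 100% with 2, 1 and 12 positions.

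BDE was the only trait with called tiles, 2 of 14 tested (7.57% of all tiles of the genome were called). The first, from 1812001 to 1814000 in the body of HSF1, stood at 97.0% in the high-BDE bulls and 91.0% in the low-BDE bulls. By bull it was 100% in H02 (5 positions), 96.0% in L03 and 97.2% in L08, against 90.0% in H05, 92.1% in H09 and 90.7% in L02. The groups did not overlap, and the difference was 6.01 points (logistic q = 0.00195). At 19 matched positions it was 8.49 points, the widest matched difference in BDE, with q = 0.0179 by the stratified test. The second, from 1870001 to 1872000 in the body of MROH1, stood at 90.1% in the high and 100% in the low bulls (logistic q = 0.000124). H02 was at 93.5% (9 positions), L03 at 82.5% (4 positions) and L08 at 90.0% (1 position), all below H05, H09 and L02. Only 4 positions were matched there, with a difference of -6.14 points (stratified test, q = 0.417). The F test and limma called 0 of the 550314 tiles of the genome for BDE, so the lack of a call by them says nothing about these 2 tiles. For HSF1 and MROH1 the F test gave unadjusted p = 0.00986 and 0.00936 and limma unadjusted p = 0.015 and 0.0277, with limma adjusted p = 0.99998 for both. Over the 14 tiles an unadjusted p under 0.05 was found for 2 by logistic regression (24.0% of all tiles), 3 by the F test (5.72%) and 2 by limma (4.41%). The HSF1 tile was no longer called without L08, where the difference was 5.90 points, and the MROH1 tile was no longer called without L02, where it was -9.87 points. The MROH1 difference ranged from -16 points without H02 to -6.82 points without L03. In 3 of 14 tiles the BDE groups did not overlap, as in 10.1% of all tiles.

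In the remaining traits 0 tiles of the 5 genes were called by logistic regression, the F test or limma, and the F test and limma called 0 tiles in the whole genome. SCE had 11 tested tiles (6.18% of all tiles called), CCR 17 (11.1%) and SCR 9 (8.68%). An unadjusted p under 0.05 by logistic regression was found for 1 SCE tile (22.7% of all tiles), 2 CCR tiles (28.3%) and 0 SCR tiles (26.3%). By the F test and limma it was found for 0 tiles in SCE (5.26% and 3.81% of all tiles), CCR (5.34% and 4.11%) and SCR (3.15% and 4.03%). The groups did not overlap in 0 SCE tiles (9.26% of all tiles), 1 CCR tile (9.94%) and 1 SCR tile (9.18%). In SCE the smallest p belonged to the HSF1 tile from 1818001 to 1820000, with 94.9% in the high and 90.7% in the low bulls (logistic q = 0.116). H01 stood at 69.8% there from 4 positions, and the other low bulls, H06 and L09, at 97.0% and 90.1%. The high bulls stood at 93.8% to 100%, so that H06 lay within their range and L09 below it. At 15 matched positions the difference was 1.48 points, and without H01 the low bulls stood at 94.3%, a difference of 0.58 points. The widest matched difference, 25 points, came from the 1 matched position of an MROH1 tile from 1886001 to 1888000. In CCR both rules named the MROH1 tile from 1884001 to 1886000, with 92.8% in the high and 98.5% in the low bulls (logistic q = 0.0317) and -5.18 points at 6 matched positions. There H08, H09 and L06 stood at 89.8%, 89.0% and 97.4%, below H06, L08 and L09 at 100%, 97.7% and 97.5%. In SCR the HSF1 tile from 1818001 to 1820000 had 91.9% against 94.6% (logistic q = 0.157), with H01 at 67.4% and the other 5 bulls at 92.5% to 96.8%. With each position weighted equally, the difference was -2.88 points, and 0.15 points without H01. In SCR, the widest matched difference was -3.46 points at 10 positions of the tile beyond the upper end of MROH1.

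In 2 further tiles, picked after their values were seen, the values of a group lay far apart and the bulls listed different positions. The MROH1 tile from 1878001 to 1880000, which holds the intermediate site, was tested in CCR, where H08 stood at 61.5%, H09 at 98.2%, L06 at 74.3%, H06 at 94.6%, L08 at 40% and L09 at 40.9%. H09 and H06 listed none of their positions in the intermediate site, whereas L08 and L09 listed all of theirs, 1 and 6, there. The groups overlapped, at 69.4% and 67.7% (logistic q = 0.554), and at 8 matched positions they differed by 2.42 points. With 1 bull left out the tile was called in both directions, at 22.6 points without H08, 28.6 without H06 and -18.4 without L09. At matched positions these were 7.86, -0.58 and -2.94 points. Without H09, L06 or L08 it was not called. The DGAT1 tile from 1796001 to 1798000, at the upper border of the unmethylated stretch, was at 81.7% in the high-CCR and 79.4% in the low-CCR bulls, and -0.39 points apart at 9 matched positions. Without L09 the DGAT1 tile was called at -13.8 points, with 0.70 points at 8 matched positions.

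The study names 11 variant positions inside the 5 genes and flanks, 4 of them missense variants. Of these, 0 had a listed position within 1 bp in any bull, so methylation at the variants themselves was not read. Around the DGAT1 missense position, 1802266, no position was listed within 500 bp. Around the missense position in the lower flank of FBXL6, 1765055, the 16 positions within 500 bp averaged 87.5%. Around the HSF1 missense position, 1808145, the 5 positions within 500 bp averaged 100%. Around the MROH1 missense position, 1878165, the 19 positions within 500 bp averaged 86.5%, which takes in the edge of the intermediate site. The variant at 1793616 lies in the DGAT1 stretch, where 40 positions within 500 bp averaged 5.71%, and the variant at 1765835 lies just below the FBXL6 stretch, where 39 positions averaged 24.6%. The other variants in the gene bodies of FBXL6, DGAT1, HSF1 and MROH1 lay among positions that averaged between 79.8% and 95.1%.

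Over all 5 genes together, the bull effect ran from -4.45 points in H01 to 1.49 points in H03. Among the other 20 fine-mapped genes, those whose bull effect was most like it over 18 bulls were CPSF1 on chromosome 14 (Pearson r = 0.66, Spearman rho = 0.71), CYSTM1 on chromosome 7 (r = 0.58, rho = 0.56) and MYH10 on chromosome 19 (r = 0.52, rho = 0.62). Without H01 and H09, the bulls farthest from the median, r was 0.65, 0.62 and 0.57, and the order changed: SCRT1 on chromosome 14 (0.68, against 0.37 with all bulls) and NRG2 on chromosome 7 (0.68, against 0.21) then came first. By rho, SCRT1 (0.64) came second. These are descriptions, since the genes share each bull's library and depth. Between pairs of the 5 genes themselves r ran from -0.01 to 0.23. Some of these effects rest on few positions, as in FBXL6 with 1 each for H02 and H09, and neighbouring genes share flank positions. Low r values here thus do not tell whether the genes vary together.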

How the data were processed

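Sperm DNA of 18 bulls had been bisulfite sequenced. The authors trimmed reads (Trim Galore 0.4.0), mapped them to UMD 3.1 with Bowtie2, and, per the submitters' processing notes, extracted methylation with Bismark 0.14.5, and deposited the percent of methylated reads per CpG position covered by at least 10 reads, strands separate. The authors gave read counts per position for 6 bulls (medians 11 to 12), and for 12 bulls the depth is unknown. In GL, SCE, BDE and CCR every position counted as 10 reads, and SCR used listed counts.

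Tiles were tested genome-wide by logistic regression (likelihood ratio test), with q values from a simplified SLIM. This test had no term for the spread between bulls, so its p and q cover counting error of reads only. Bull effects came from an additive model (percent = position + bull) over positions listed in 2 or more bulls. Alternatives were an F test with overdispersion, limma 3.58.1 (R 4.3.3) on log2 ratios with 1 read added, Benjamini-Hochberg adjustment, matched positions (Cochran-Mantel-Haenszel), other thresholds, and each bull left out. Python 3.11.15, NumPy 2.4.6 and SciPy 1.17.1 were used. The tests were tested on simulated data.

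Named were all called tiles, per trait the tiles with the smallest p and the widest matched difference, per gene the position with the widest range among those listed in 12 or more bulls, and the 3 most alike fine-mapped genes. The members, lists and rules were chosen with earlier results of these data known.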

Additional observations from a re-analysis of the deposited data

How the results depend on the processing

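With tiles shifted by 1000 bp the number of called tiles was 2 of 17 for GL (8.81% of all tiles), 1 of 15 for BDE (7.49%) and 1 of 11 for SCR (8.75%), and with 13 reads per position it was 1 of 17 for CCR (15.2%). For BDE it was 0 of 14 at a difference over 10 points (5.53% of all tiles), 0 by the F test, 0 by limma (both 0 in the genome) 0 of 13 at matched positions (1.59%), and 1 of 8 with at least 3 positions per tile and bull (8.15%). Leaving out 1 bull at a time gave 0 to 1 called tiles for GL, 0 to 1 for SCE, 1 to 2 for BDE, 0 to 2 for CCR and 0 to 2 for SCR, where 6.17% to 16.9% of all tiles were called. Calls appeared without H03, H09 or L07 for GL, without H06 for SCE, without H06, H08, H09, L06 or L09 for CCR, and without H01 for SCR. Beside the 2 BDE tiles, 17 calls appeared in such settings, in 11 tiles. All 17 differences were smaller at matched positions, and 11 were then under 5 points. An example is the FBXL6 tile from 1767001 to 1769000, with a GL difference of 42.6 points and 1.06 points at 3 matched positions. The calls were picked for wide differences and had as few as 2 matched positions, so the smaller values are a description. At least 15 reads per position left no tile to test for SCR.

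At positions listed in at least 12 bulls the level was 94.6% for HSF1 and 93.4% for MROH1, and FBXL6, DGAT1 and BOP1 had no such position. With at least 10 positions per bull FBXL6 moved from 50% to 29.3%. The unmethylated stretches numbered 0 with positions listed in at least 9 bulls, 5 with positions listed in at least 1 bull (chosen after seeing the data), 3 at under 10% and 2 at under 30%. Of 319 other values of the gene differences, 262 moved by less than 1 SD of the bulls and 57 by more, 20 of these under the plain mean of listed positions. The direction was kept in 267 and turned in 52. None of the 319 had an exact permutation p under 0.05, with 0.114 the smallest for GL. Outside GL this was fixed in advance, since at most 3 bulls against 3 cannot give a p under 0.1. Some settings left too few bulls for any test. The causes of these changes were not tested. No paired analysis was possible because the labels give no pairing of bulls.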
